A study of Homo sapiens with 6 samples.

Results

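The core components of the spliceosome were followed in SK-BR-3, an established HER2-positive breast cancer cell line, after knockdown of the adaptor protein GRB2. The members were the protein-coding genes of the count table whose symbols begin with SNRP, SNRNP, SF3A, SF3B, PRPF, LSM or U2AF (a digit following the last 5 of these), which gave 58 of the 30327 genes listed and of the 16869 listed as protein-coding. They were sorted by the small nuclear ribonucleoprotein (snRNP) that each protein belongs to. Poly(A) RNA was sequenced in 6 libraries. There were 3 libraries of cells transfected with a control siRNA that has no target (si_NC) and 3 of cells transfected with an siRNA to GRB2 (si_GRB2), with no other agent or allele named for either group. The comparison asks how the knockdown changed the transcriptome of these cells. The descriptions of the treated libraries read si_GRB2, whereas their titles and genotype name GRB2 overexpression, so the level of GRB2 in each library was examined first. GRB2 had 124, 129.5 and 126 CPM with si_NC against 27.8, 28.1 and 29.6 CPM with si_GRB2, where CPM is the read count of a gene relative to the TMM-scaled size of its library. GRB2 was thus far lower in every library labelled si_GRB2 (log2 fold change −2.15, standard error 0.04, adjusted p = 3.87e-15). This and all other adjusted p-values, unless another tool is named, are Benjamini-Hochberg values over the 15801 genes with enough reads to test, from the quasi-likelihood test of edgeR. All directions here follow the descriptions. Libraries are given in the order of their replicate numbers, and every ± is an SD over the 3 libraries of a group. The labels do not say that replicates were separate cultures, so the p-values measure only the spread between these libraries, which may be technical.

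The 6 libraries held 24810378 to 28532480 reads on genes, and all 58 members passed the filter on low counts in them. ERBB2, which encodes HER2, stood at 3415 to 4229 CPM, and the keratins KRT8, KRT18 and KRT19 at 2667 to 5987 CPM. The luminal markers EPCAM and GRB7 were also present, whereas CDH1 was near 0 in every library and GATA3 did not exceed 4.41 CPM. The 8 luminal markers summed to 17387 to 17775 CPM in si_NC and to 14540 to 15130 CPM in si_GRB2, where 5 of the 7 tested were lower and ERBB2 was higher. Markers of leukocytes, fibroblasts and endothelium summed to 7.06 to 8.88 CPM in si_NC and 6.64 to 7.23 CPM in si_GRB2. The part of the luminal markers in the member values was not tested.

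Introns are removed by the spliceosome, which assembles anew on each intron from the U1, U2, U4, U5 and U6 snRNPs, each a small nuclear RNA wrapped in proteins. U1 recognises the 5′ splice site, U2 with the help of U2AF recognises the branch point and the 3′ splice site, and the U4/U6.U5 tri-snRNP brings the parts that form the catalytic centre. A ring of Sm proteins sits on most of these RNAs and a related LSM ring on U6, and the U11 and U12 snRNPs replace U1 and U2 on a minor class of introns.

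Of the 58 members, 18 were lower in si_GRB2 at an adjusted p under 0.05, 5 were higher and 35 passed in neither direction. Lower members thus made up 31%, against 15.5% of all genes tested, and higher members 8.62%, against 15.2%. Members were well expressed, and genes in the range between the members' quartiles (39.7 to 153 CPM, 3623 genes) were lower in 22.2% and higher in 24.8%. The log2 fold changes were small. They ran from −0.24 (SNRPA1) to 0.37 (SNRPN), and their median was −0.068, against 0.0019 over all genes tested. No member reached a fold change of 1.5 at an adjusted p under 0.01 in edgeR's test, DESeq2 or limma. Of all genes, 2.52% did in edgeR's test. An unadjusted p under 0.05 in edgeR was found for 29 members. The share of all genes at that limit was not counted, so this number cannot be set against it. All 3 si_GRB2 libraries lay below all 3 si_NC libraries in 27 members and above them in 7, where 21.2% and 21.1% of all genes tested showed such a separation. In bulk RNA, fewer cells with a transcript and less of it per cell cannot be told apart.

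The counts of members depended on the scale and the test. With DESeq2, 17 were lower and 2 higher, against 13.8% and 13.5% of all genes. Limma was also run on the log2 of the authors' FPKM plus a pseudocount of 1, which uses 3 values per group and no read counts. No member passed there, whereas 1.89% of all genes were lower and 2.79% higher. An unadjusted p under 0.05 in limma was found for 16 members, a limit at which all genes were not counted. When that test was kept to genes of a mean FPKM of at least 1, 4 of 55 members were lower and 4 higher, against 9.07% and 15.6% of all genes, so the share of lower members was then below that of all genes. Scaling by total counts alone moved the median of all genes to 0.052, and 14 members were then lower and 9 higher, against 11% and 21.8% of all genes. LSM5, SF3B5, SNRNP35 and SNRPF then no longer passed as lower, and LSM1, PRPF3, SF3B1 and SNRNP25 passed as higher. Leaving out any 1 of the 6 libraries gave 16 to 20 lower and 2 to 3 higher members. Of all genes, 12.2% to 14.5% were then lower and 11.2% to 13.4% higher, against 15.5% and 15.2% with all 6 libraries. Fewer members, and a smaller share of all genes, were thus higher whichever library was left out.

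**Figure D1:**
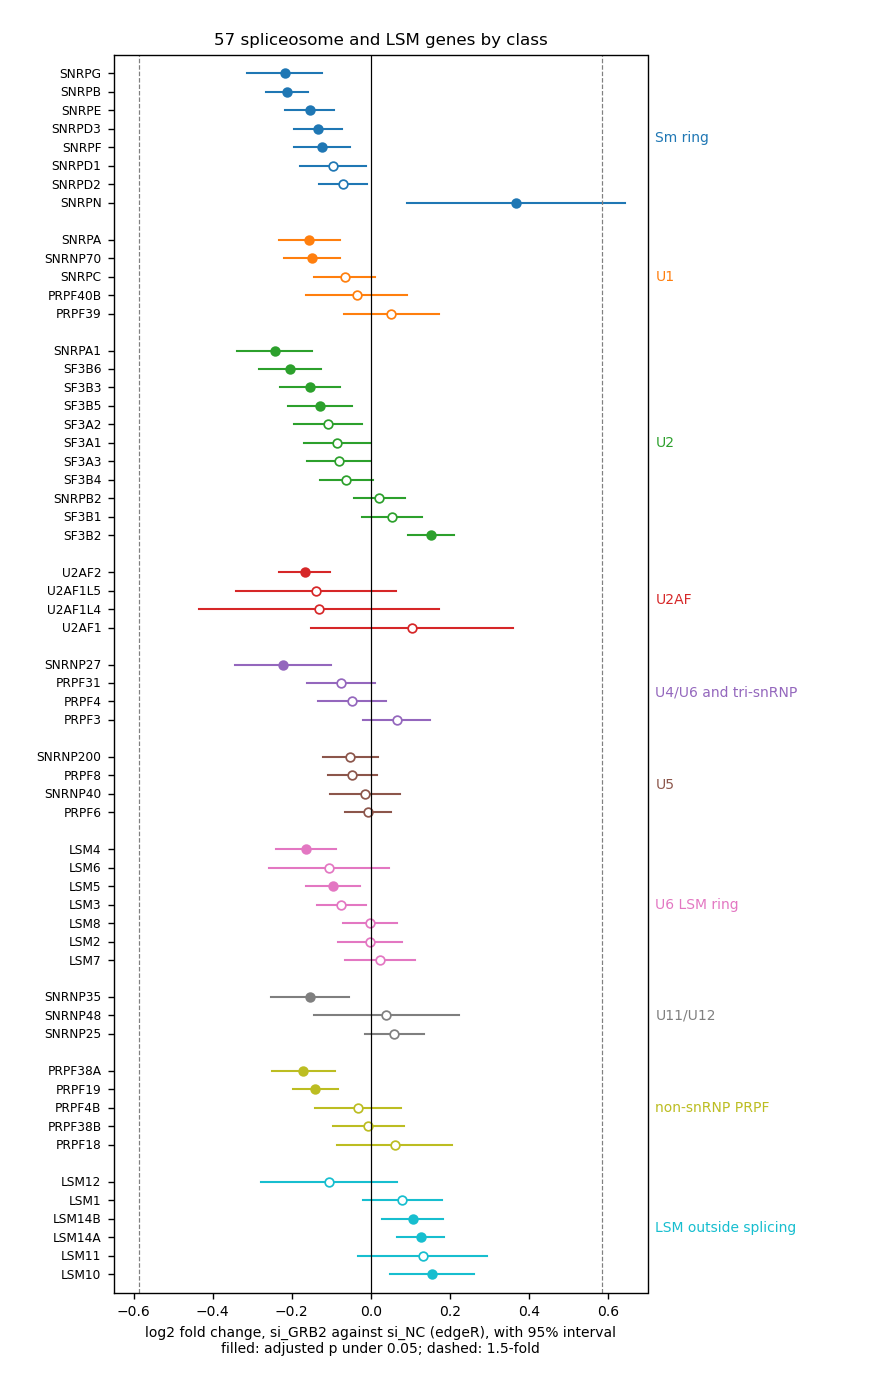
Log2 fold change of 57 of the members (horizontal axis, si_GRB2 against si_NC, edgeR) with its 95% interval, grouped by class. Filled points had an adjusted p under 0.05, and every point lies inside the dashed lines at a 1.5-fold change, from −0.24 for SNRPA1 to 0.37 for SNRPN.

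The promoters of 4 members that changed are given first, because they carry the same short sequence and went in both directions. These are SNRPB, with the smallest adjusted p of the members, and 3 genes of the U2 snRNP, of which SF3B6 and SNRPA1 fell and SF3B2 rose. The 250 bases before the RefSeq start are shown 5′ to 3′ on the strand of the gene, with the letters CCGGAAGT (or ACTTCCGG on the other strand), bound by ETS factors, in capitals. In GRCh38 they lie at chr20:2470790-2471039, minus strand (SNRPB), chr2:24076327-24076576, minus strand (SF3B6), chr15:101295249-101295498, minus strand (SNRPA1) and chr11:66052114-66052363, plus strand (SF3B2).
SNRPB: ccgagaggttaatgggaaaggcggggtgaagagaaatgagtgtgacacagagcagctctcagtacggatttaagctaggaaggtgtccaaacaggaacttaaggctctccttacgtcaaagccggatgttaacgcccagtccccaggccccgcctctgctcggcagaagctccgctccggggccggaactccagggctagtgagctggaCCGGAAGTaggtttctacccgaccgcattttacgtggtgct
SF3B6: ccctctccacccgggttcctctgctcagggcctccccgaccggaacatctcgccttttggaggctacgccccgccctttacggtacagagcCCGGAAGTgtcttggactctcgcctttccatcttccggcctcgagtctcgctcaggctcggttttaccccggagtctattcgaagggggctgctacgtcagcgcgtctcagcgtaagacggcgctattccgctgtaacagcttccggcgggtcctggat
SNRPA1: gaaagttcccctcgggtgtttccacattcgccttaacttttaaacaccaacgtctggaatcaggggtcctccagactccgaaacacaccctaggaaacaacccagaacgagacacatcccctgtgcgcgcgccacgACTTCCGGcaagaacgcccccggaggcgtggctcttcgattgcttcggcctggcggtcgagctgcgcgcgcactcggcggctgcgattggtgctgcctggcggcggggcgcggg
SF3B2: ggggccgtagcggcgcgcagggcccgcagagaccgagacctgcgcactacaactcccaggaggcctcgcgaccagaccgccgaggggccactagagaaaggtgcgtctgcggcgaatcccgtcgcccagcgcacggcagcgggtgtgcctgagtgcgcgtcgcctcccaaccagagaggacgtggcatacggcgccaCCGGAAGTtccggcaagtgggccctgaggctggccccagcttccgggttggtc

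RefSeq promoters, which run from 250 bases before the start to 50 after it, were matched for 47 of the 58 members. The ETS letters were found on either strand in 13 of the 47 (27.7%), against 4.14% of all 35116 promoters and 9.02% of those of 10082 protein-coding genes tested. They stood in 7 of 16 lower members (43.8%), in 1 of 4 higher members and in 5 of 27 that did not pass (18.5%). Among all protein-coding genes tested these shares were 7.84%, 9.26% and 9.28%, in the same order. Of the 13 members, 7 belonged to the U2 snRNP, which had 10 matched promoters (SF3A1, SF3A2, SF3A3, SF3B2, SF3B4, SF3B6 and SNRPA1), and none to U1, which had 4. The YY1 letters ATGGCGG were in 17.0% of the members' promoters (5.55% of all promoters and 10.5% of those of protein-coding genes tested), the E-box CACGTG in 4.26% (7.26% and 10.2%) and the TATA letters TATAAA in 2.13% (11.5% and 5.69%). None of these 4 motifs contains another. The matches are a description of sequence, chosen for display after the values were seen, and whether any factor binds them in these cells was not tested.

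Most genes of the Sm ring were lower. Sm proteins assemble as a ring of SNRPB, SNRPD1, SNRPD2, SNRPD3, SNRPE, SNRPF and SNRPG on the U1, U2, U4 and U5 RNAs, and 5 of these 7 genes were lower, against 15.5% of all genes tested. In all 7 every si_GRB2 library lay below every si_NC library, against 21.2% of all genes. SNRPB, the gene of the B and B′ proteins, had 401, 411 and 409.8 CPM with si_NC against 353, 349 and 353 CPM with si_GRB2. Every si_GRB2 library was below every si_NC library by a wide margin (log2 fold change −0.21, standard error 0.025, adjusted p = 7.75e-06, a change of −13.7%). SNRPB also had the highest FPKM of the members, with 256 ± 11.9 FPKM in si_NC and 228 ± 5.28 FPKM in si_GRB2. SNRPG had 130.0, 137 and 119.9 CPM with si_NC against 114, 105 and 113 CPM with si_GRB2. Its si_NC libraries spread more widely, and the lowest of them still exceeded the highest si_GRB2 library (log2 fold change −0.22, standard error 0.045, adjusted p = 0.00143). SNRPE went from 168 ± 2.33 to 151 ± 1.66 CPM (adjusted p = 0.000621), SNRPD3 from 190.2 ± 3.82 to 173 ± 2.32 CPM (adjusted p = 0.00215) and SNRPF from 127 ± 3.73 to 116 ± 2.12 CPM (adjusted p = 0.00938). An unnamed protein-coding gene shares exon bases with SNRPD3 on the same strand and had 12.4% as many reads. The other 2 members of the ring had smaller differences. SNRPD1 had a log2 fold change of −0.095 (adjusted p = 0.0841) and SNRPD2 of −0.07 (adjusted p = 0.072). Both passed when si_NC library 1 was left out, SNRPD1 also without si_NC library 3, with lowest adjusted p-values of 0.0428 and 0.0245.

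SNRPN, a paralogue of SNRPB transcribed from an imprinted locus, went the other way. It had 4.14, 3.73 and 3.49 CPM with si_NC against 4.73, 5.17 and 4.74 CPM with si_GRB2, so it was scarce and all si_GRB2 libraries were above all si_NC libraries. The rise (log2 fold change 0.37, standard error 0.13, adjusted p = 0.0423) still passed without si_NC library 1. It did not pass without any 1 of the other 5 libraries (adjusted p from 0.042 to 0.148 over the 6 libraries left out in turn) or with DESeq2 (adjusted p = 0.13). SNRPN, on the plus strand of chromosome 15 of GRCh38 from 24823637 to 24978723, rests on 690 reads in all and shares exon bases with SNHG14, which had 51.9% as many reads. The genes SNRPN and SNRPB have no 150-base stretch of transcript in common, so reads of that length could be assigned to one or the other. The summed level of the 8 Sm genes was 1451, 1501 and 1469 CPM with si_NC against 1339.8, 1312 and 1348 CPM with si_GRB2, a change of the mean by −9.53% without overlap.

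**Figure D2:**
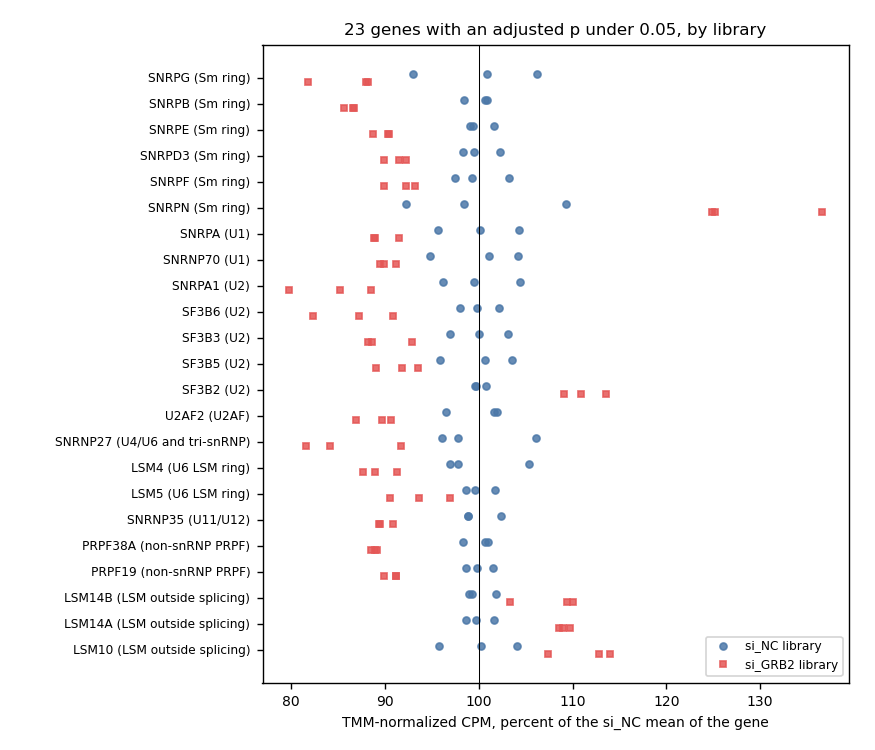
TMM-normalized CPM of the 23 members that passed, in each of the 6 libraries, as a percentage of the si_NC mean of the gene (horizontal axis; circles si_NC, squares si_GRB2). The squares lie to the left of the circles for the 18 lower members, SNRPB among them at 349 to 353 CPM against 401 to 411, and to the right for the 5 higher members.

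In the U1 snRNP, 2 of the 3 genes for core proteins were lower and no gene for an auxiliary protein passed. Among all genes tested 15.5% were lower, and among genes at the level of the members 22.2%. SNRPA, the U1-A protein that binds a stem-loop of U1 RNA, had 108, 118 and 113 CPM with si_NC against 101, 104 and 101 CPM with si_GRB2. Its groups did not overlap (log2 fold change −0.16, standard error 0.036, adjusted p = 0.00371). SNRNP70, the U1-70K protein, had 202, 215 and 222 CPM with si_NC against 191, 194 and 192 CPM with si_GRB2. Here too every si_GRB2 library lay under the lowest si_NC library (log2 fold change −0.15, standard error 0.034, adjusted p = 0.00283). SNRPC, the third protein specific to U1, did not overlap either but did not pass (log2 fold change −0.066, 95% interval −0.14 to 0.011). PRPF39 and PRPF40B, which help U1 at 5′ splice sites, had log2 fold changes of 0.052 and −0.035, each with overlapping libraries. FKBP3 overlaps PRPF39 on the opposite strand and had 278% as many reads, and the sources do not state whether counting used strand. The mean of the summed CPM of the 6 U1 genes changed by −6.42%.

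The U2 snRNP moved in both directions. Its genes comprise SNRPA1 and SNRPB2, which bind U2 RNA, the SF3A trimer and the SF3B complex that clamps the branch point. Of the 11, 4 were lower and 1 was higher. Over all genes tested 15.5% were lower and 15.2% higher, and among genes at the level of the members 22.2% and 24.8%. SNRPA1, the U2-A′ protein, had the largest fall of all members, with 76.1, 78.7 and 82.6 CPM with si_NC against 67.5, 63.1 and 70.1 CPM with si_GRB2. The si_GRB2 libraries were all below the si_NC libraries, although both groups were spread (log2 fold change −0.24, standard error 0.044, adjusted p = 0.000524). Its partner SNRPB2 had 156 ± 4.11 CPM in si_NC against 159 ± 0.811 CPM in si_GRB2 (log2 fold change 0.022, 95% interval −0.042 to 0.086). SF3B6, the p14 protein that touches the branch point adenosine, had 148, 151 and 145 CPM with si_NC against 129, 122 and 135 CPM with si_GRB2. All si_GRB2 libraries were lower, the second most so (log2 fold change −0.20, standard error 0.037, adjusted p = 0.000451). SF3B3 (log2 fold change −0.15, adjusted p = 0.00352) and SF3B5 (log2 fold change −0.13, adjusted p = 0.0166) also fell, and SF3B5 did not pass without si_NC library 3 or si_GRB2 library 3 (adjusted p up to 0.0727).

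SF3B2 was the one U2 gene among the members that rose. It encodes a subunit that binds SF3B4, and had 219.9, 219.6 and 222 CPM with si_NC against 245, 250.4 and 241 CPM with si_GRB2. The si_NC libraries lay close together and every si_GRB2 library was higher (log2 fold change 0.15, standard error 0.027, adjusted p = 0.00047), and this call was kept without any 1 of the libraries. SF3B1, the scaffold of SF3B and a gene often mutated in blood cancers, had 139.7, 142 and 139 CPM with si_NC against 138, 145 and 153 CPM with si_GRB2. Those groups overlapped (log2 fold change 0.053, adjusted p = 0.298), although with total-count scaling SF3B1 counted as higher (adjusted p = 0.0353). SF3B4 had a log2 fold change of −0.061 (adjusted p = 0.156). The 6 SF3B genes summed to 838 ± 2.87 CPM in si_NC and 824 ± 8.74 CPM in si_GRB2. All 3 SF3A genes had every si_GRB2 library below every si_NC library, a separation shown by 21.2% of all genes tested. Their log2 fold changes were −0.085 (SF3A1), −0.11 (SF3A2) and −0.081 (SF3A3), and none passed (adjusted p = 0.121, 0.0569 and 0.12). SF3A2 passed without si_NC library 1 (adjusted p = 0.0351) and SF3A3 without si_NC library 3 (adjusted p = 0.0425). PLEKHJ1 overlaps SF3A2 on the opposite strand and had 129% as many reads. All 3 SF3A promoters and those of SF3B2, SF3B6 and SNRPA1 held the ETS letters, as given above.

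Of the U2AF genes, the large subunit fell. U2AF2 binds the polypyrimidine tract ahead of the 3′ splice site, and had 238, 252 and 251 CPM with si_NC against 224, 221 and 215 CPM with si_GRB2. The si_GRB2 libraries were all under the si_NC libraries (log2 fold change −0.17, standard error 0.03, adjusted p = 0.000524). U2AF1, the small subunit that reads the AG at the splice site, had only 5.74, 5.06 and 5.78 CPM with si_NC against 6.24, 6.37 and 5.21 CPM with si_GRB2. Its reads cannot be taken as the level of the gene, because the assembly holds a near-identical copy, U2AF1L5, on the same chromosome 21, which shares 784 of its 796 distinct 150-base stretches with U2AF1, and the authors kept uniquely mapped reads. U2AF1L5 had 8.70 ± 0.641 and 7.89 ± 0.446 CPM, and both together summed to 14.2 and 13.8 CPM. That sum is not the level of the gene either, because a read that maps to both is not uniquely mapped. GENCODE 44 lists the copy U2AF1L5 as an artifactual duplication. The paralogue U2AF1L4 was at 2.99 to 3.78 CPM and shares exon bases on the same strand with an unnamed protein-coding gene of 237% as many reads. None of these 3 passed, with log2 fold changes of 0.10, −0.14 and −0.13.

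The U5 snRNP, which holds the catalytic core, had no gene that passed. None of its 4 genes did so in edgeR's test, DESeq2 or limma, and none had an unadjusted p under 0.05 in edgeR's test. PRPF8, the scaffold around the active site, had 238, 241 and 245 CPM with si_NC against 238, 237 and 226 CPM with si_GRB2. Its highest si_GRB2 library came just under its lowest si_NC library (log2 fold change −0.046, 95% interval −0.11 to 0.016). SNRNP200, the helicase that unwinds U4 from U6, had 217, 204 and 216 CPM with si_NC against 198, 211 and 206 CPM with si_GRB2. These overlapped (log2 fold change −0.051, 95% interval −0.12 to 0.018). SNRNP40 and PRPF6, the latter a bridge to U4/U6, had log2 fold changes of −0.015 and −0.0074. The lowest bound of the 4 intervals was that of SNRNP200.

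Among U4/U6 and tri-snRNP proteins, SNRNP27 fell. It had 32.0, 29.0 and 29.5 CPM with si_NC against 25.4, 24.6 and 27.7 CPM with si_GRB2, with no overlap (log2 fold change −0.22, standard error 0.057, adjusted p = 0.00685). Exon bases of SNRNP27 are shared with MXD1 on the same strand, which had 66.1% as many reads. PRPF31, PRPF4 and PRPF3, proteins of the U4/U6 particle, did not pass, and their log2 fold changes were −0.075, −0.048 and 0.066, the last of which passed as higher with total-count scaling (adjusted p = 0.0319). TFPT and PRPF31-AS1 overlap PRPF31 on the opposite strand, with 43.8% and 5.48% as many reads.

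**Figure D3:**
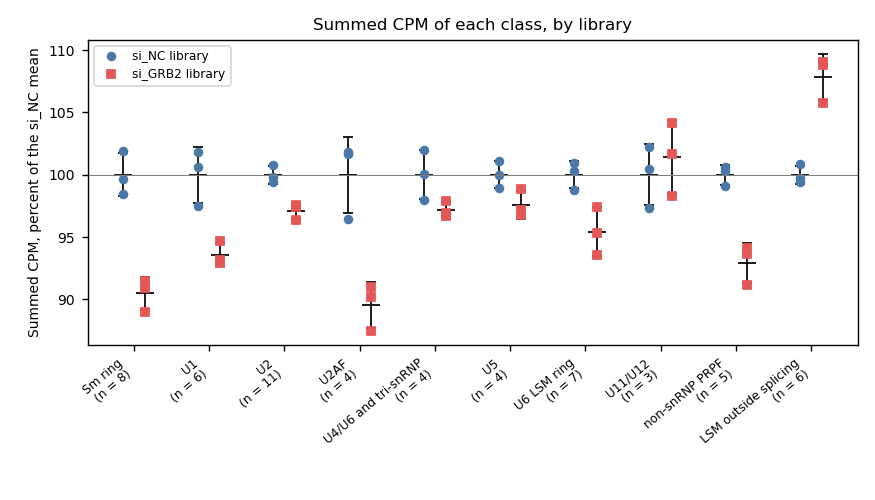
Summed TMM-normalized CPM of the genes of each class in each library, as a percentage of the si_NC mean of that class (vertical axis; circles si_NC, squares si_GRB2, bars mean ± SD of 3 libraries). The means changed by −9.53% for the Sm ring, by −10.5% for U2AF and by 7.86% for the LSM genes outside splicing. The U2AF sum is mostly U2AF2, which had 247 of its 264.8 CPM in si_NC.

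The LSM genes include the U6 ring and proteins with other tasks. LSM2 to LSM8 form the ring that binds the 3′ end of U6 RNA in the nucleus. Of these 7, 2 were lower, against 15.5% of all genes tested and 22.2% of genes at the level of the members. LSM4 had 141, 153 and 142 CPM with si_NC against 133, 127 and 129 CPM with si_GRB2. All si_GRB2 libraries were below the si_NC libraries (log2 fold change −0.16, standard error 0.036, adjusted p = 0.0023). LSM5 also fell (log2 fold change −0.095, adjusted p = 0.0358), but did not pass without si_NC library 1 or 2 or si_GRB2 library 1 or 2 (adjusted p up to 0.188). LSM3 had a log2 fold change of −0.074 (adjusted p = 0.0705, or 0.0398 without si_GRB2 library 3), and LSM6 of −0.11. LSM8, the subunit that distinguishes the nuclear ring from the cytoplasmic one, had 158, 157 and 151 CPM with si_NC against 154, 152 and 160.4 CPM with si_GRB2. Its groups overlapped (log2 fold change −0.002, 95% interval −0.07 to 0.066). LSM2 and LSM7 had log2 fold changes of −0.0017 and 0.023. The ring summed to 771, 776 and 759.9 CPM with si_NC against 733, 719 and 749 CPM with si_GRB2, a change of the mean by −4.56%.

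Of the 6 LSM genes that act outside splicing, 3 rose in edgeR's test. There 15.2% of all genes tested and 24.8% of genes at the level of the members were higher. With DESeq2 only LSM14A rose. None of the 6 fell in edgeR's test, in DESeq2 or at an unadjusted p under 0.05 in edgeR. The median log2 fold change of the 6 was 0.12. LSM14A, a protein of P bodies, had 154, 159 and 156 CPM with si_NC against 171, 172 and 169.9 CPM with si_GRB2. The si_GRB2 libraries lay close together and clearly above the si_NC libraries (log2 fold change 0.13, standard error 0.028, adjusted p = 0.00284). Its paralogue LSM14B rose less (log2 fold change 0.11, adjusted p = 0.038) and, of the 6 fits with a library left out, passed only in that without si_GRB2 library 1 (adjusted p from 0.017 to 0.141). It did not pass with DESeq2 (adjusted p = 0.0678). LSM10, a subunit of the U7 snRNP that processes histone mRNA ends, had 27.6, 26.4 and 28.7 CPM with si_NC against 31.1, 29.6 and 31.4 CPM with si_GRB2. The groups did not overlap (log2 fold change 0.15, standard error 0.05, adjusted p = 0.0278), yet the call was lost without si_NC library 1 or 2, without si_GRB2 library 1 or 3 (adjusted p from 0.0227 to 0.142) and with DESeq2 (adjusted p = 0.105). LSM11, the other LSM subunit of U7, had a log2 fold change of 0.13 and LSM1, of the cytoplasmic ring for mRNA decay, of 0.08. Neither passed, nor did LSM12 at −0.11. LSM1 overlaps BAG4 on the opposite strand, a gene with 35.5% as many reads. The 6 genes summed to 326, 330.4 and 327 CPM with si_NC against 346, 356 and 357 CPM with si_GRB2, without overlap.

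In the minor spliceosome, SNRNP35 fell. SNRNP35 is the U11 counterpart of SNRNP70, and had 29.8, 30.9 and 29.8 CPM with si_NC against 27.4, 27.0 and 26.9 CPM with si_GRB2. Its groups did not overlap (log2 fold change −0.15, standard error 0.046, adjusted p = 0.0189). The call was lost without si_NC library 2 or si_GRB2 library 2 (adjusted p up to 0.0614), with DESeq2 (adjusted p = 0.103) and with total-count scaling. RILPL1 overlaps it on the opposite strand and had 36.1% as many reads. The ratio of SNRNP70 to SNRNP35 reads was 7.07 ± 0.343 in si_NC and 7.09 ± 0.125 in si_GRB2, and the means of this ratio, which was chosen after the values were seen, differed by less than either SD. SNRNP25 and SNRNP48 had log2 fold changes of 0.06 and 0.04 and did not pass. The median of these 3 genes, 0.040, turned to −0.016 without si_NC library 1.

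Of the 5 PRPF genes outside the snRNPs, 2 fell, against 15.5% of all genes tested and 22.2% of genes at the level of the members. PRPF38A, a protein of the complex formed before activation, had 59.4, 57.99 and 59.6 CPM with si_NC against 52.2, 52.6 and 52.5 CPM with si_GRB2. The libraries of each group agreed closely and stood apart (log2 fold change −0.17, standard error 0.038, adjusted p = 0.00237). PRPF19, the ubiquitin ligase of the Prp19 complex, had 236, 233 and 240.2 CPM with si_NC against 213, 216 and 216 CPM with si_GRB2. Every si_GRB2 library was below the si_NC libraries (log2 fold change −0.14, standard error 0.027, adjusted p = 0.00084). The second-step factor PRPF18, the kinase PRPF4B and PRPF38B, the paralogue of PRPF38A, had log2 fold changes of 0.06, −0.032 and −0.006 and did not pass. FRMD4A overlaps PRPF18 on the opposite strand with 255% as many reads. The median of these 5 genes, −0.032, was 0.018 without si_GRB2 library 1.

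Levels were set side by side between members as the authors' FPKM, which is per length. The gene length that the authors divided by is not stated, and the ranks and spans below depend on it. For SNRPF, for example, the transcript used here has 452 bases and all its exons together have 2417. Over all 6 libraries SNRPB ranked first with a mean of 242 FPKM, followed by SNRPD2 (180.1), SF3B5 (104) and SF3B6 (100.2). SF3B5 and SF3B6 did not differ beyond their spread, at 107 ± 7.94 and 106 ± 2.95 FPKM in si_NC. The median member of the Sm ring had 48.8 FPKM in si_NC, that of the U6 LSM ring 27.2, of U1 22.1, of U2 17.6 and of U5 16.2. Proteins of the Sm ring occur in equal number in it. The FPKM of its genes other than SNRPN spanned 20.2 (SNRPD1) to 256 (SNRPB) in si_NC. In CPM, which is not per length, SNRPD1 had 122.5 and SNRPB 407 in si_NC. The lowest members were SNRPN, U2AF1L4, U2AF1L5 and U2AF1, all at or under 1.18 FPKM in both groups. Pseudogenes listed for 8 members had at most 0.314% of the reads of their parent. The small nuclear RNAs themselves, which have no poly(A) tail, were not measured usefully, with 137 to 204 reads per library over 176 rows.

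**Figure D4:**
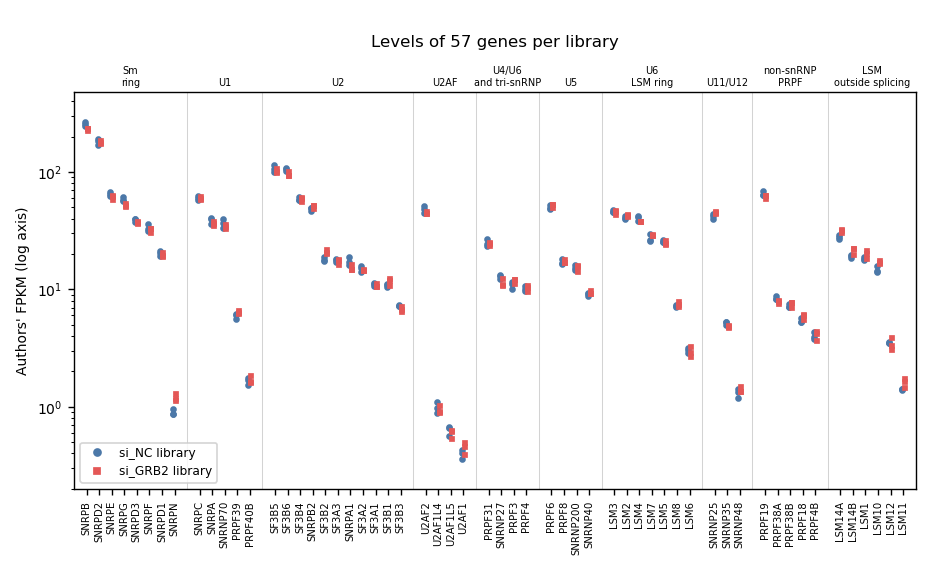
Authors' FPKM of 57 members in each library (vertical log axis; circles si_NC, squares si_GRB2), ordered by level within each class. SNRPB had the highest values, 256 ± 11.9 in si_NC and 228 ± 5.28 in si_GRB2. U2AF1 had the lowest, but it shares sequence with a copy and only uniquely mapped reads were kept.

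Short transcripts tended to have lower fold changes in these libraries, and many members are short. Over all genes tested, the median log2 fold change went from −0.043 in the shortest sixth of transcripts (up to 1139 bases) to 0.039 in the longest. Members in the same length classes had medians of −0.097, −0.13, −0.095, −0.021, −0.085 and −0.019 from shortest to longest, each below the median of all genes of that length. With offsets for length and GC content, 16 members were lower, of which 14 were among the 18, and 6 were higher. Of all genes, 15.2% were lower and 15.8% higher with these offsets. SF3B5, SNRNP35, SNRPA and SNRPF were then lost among the lower members, LSM3 and SNRPD1 gained, and SNRNP25 gained among the higher. The part of transcript length in the fold changes was not tested further.

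**Figure D5:**
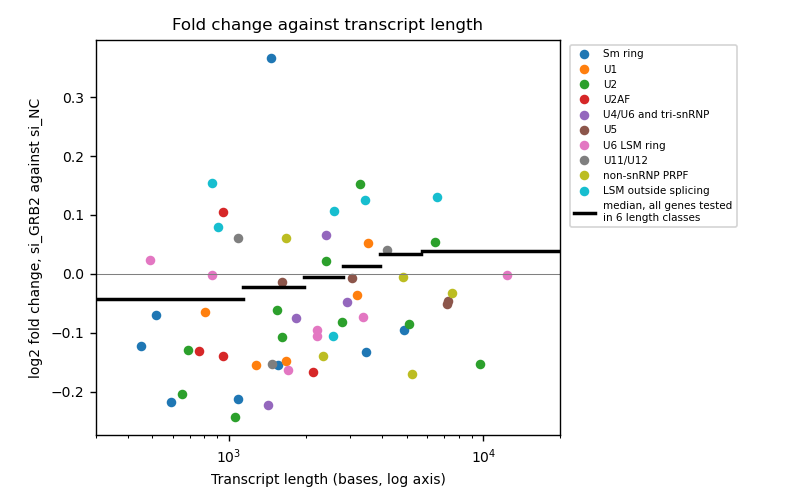
Log2 fold change (vertical axis) against transcript length in bases (horizontal log axis) for 57 members, coloured by class, with the median of all genes tested in 6 length classes as bars. The bars rise from −0.043 to 0.039, and 41 of the 57 members lie below 0.

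Proteins that build or join these snRNPs were read from 5 further lists. The first list held the SMN complex, which loads the Sm proteins on the RNAs, and proteins of or tied to the Sm ring assembly pathway. Not every gene on it, COPRS among them, loads Sm proteins. In this list 7 of 17 genes were lower and 1 was higher, with a median log2 fold change of −0.15. These counts and those of the other lists stand beside 15.5% lower and 15.2% higher among all genes tested, and 22.2% and 24.8% among genes at the level of the members. GEMIN5, the subunit that recognises the snRNA, had 42.8, 41.8 and 42.4 CPM with si_NC against 29.3, 28.1 and 33.3 CPM with si_GRB2. It had the largest fall of all genes on these lists, and its groups were far apart (log2 fold change −0.49, standard error 0.055, adjusted p = 5.42e-06). GEMIN2, GEMIN4, GEMIN8, CLNS1A, COPRS and SNUPN, which imports assembled snRNPs to the nucleus, also fell, with log2 fold changes of −0.28 (SNUPN) to −0.15 (CLNS1A). STRAP rose (log2 fold change 0.10, adjusted p = 0.02), but did not pass without si_NC library 1 or 3 or si_GRB2 library 1 or 2 (adjusted p up to 0.108). SMN1 and SMN2, near-identical copies whose reads are uncertain, did not pass (−0.20 and −0.23).

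The remaining 4 lists were mixed. Among other U1, U2 and branch site proteins, 4 of 17 were lower and 3 higher. TIA1, which helps U1 at weak sites, fell (log2 fold change −0.28, adjusted p = 0.000111) as did LUC7L2, SF1 and PUF60, and SUGP1, an SF3B1-associated protein, rose (log2 fold change 0.22, adjusted p = 0.00356) as did DDX42 and PHF5A. PHF5A belongs to SF3B itself, so SF3B2 was not alone in rising there (PHF5A log2 fold change 0.17, adjusted p = 0.00612). Of other U5, U4/U6 and tri-snRNP proteins, 4 of 13 were lower, SNU13, which binds U4 RNA, the most (log2 fold change −0.15, adjusted p = 0.00175), and 1 was higher, the recycling factor SART3 (log2 fold change 0.14, adjusted p = 0.0401, up to 0.162 with a library left out and under 0.05 only without si_GRB2 library 2). Of proteins of the B complex, the Prp19 complex and the catalytic steps, 6 of 31 were lower, a share between 15.5% (all genes tested) and 22.2% (genes at the level of the members), SYF2 the most (log2 fold change −0.21, adjusted p = 0.00228), and 3 were higher, WBP4 the most (log2 fold change 0.37, adjusted p = 0.00426). Of other minor spliceosome proteins, 2 of 10 were lower, TXNL4B the most (log2 fold change −0.27, adjusted p = 0.0423, up to 0.179 with a library left out and under 0.05 only without si_GRB2 library 2), and 1 was higher, ZCRB1 (log2 fold change 0.20, adjusted p = 0.00137). The median log2 fold changes of these lists were −0.019, −0.033, −0.068 and 0.037. Members and lists together gave 41 lower and 14 higher of 146 genes, none past the 1.5-fold limit, where 15.5% of all genes tested were lower and 15.2% higher, and 22.2% and 24.8% of genes at the level of the members.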

How the data were processed

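The 58 genes, their classes, the partner lists and the alternatives were chosen with earlier results of these data known. Per the labels and the study's methods, poly(A) RNA was bound to capture beads and made into libraries that keep the strand. The authors trimmed the reads with FASTX-Toolkit, aligned them to GRCh38 with HISAT2 and deposited the count of uniquely mapped reads per gene, without normalization. The authors also deposited FPKM per gene, rounded, for 29912 genes. The counting tool, the annotation release and the strand setting are not given in the sources used here. Of the gene identifiers, 99.7% were found in GENCODE 44, from which positions, lengths and overlaps were taken. Promoters came from RefSeq on GRCh38.

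The counts were analysed with edgeR 4.0.16 in R 4.3.3. Low genes were dropped by filterByExpr, which left 15801, and libraries were scaled by TMM. The 2 groups of 3 libraries were compared by glmQLFit and glmQLFTest without covariates, and p-values were adjusted by Benjamini-Hochberg across all 15801 genes. Reads on genes per library are given with the results, and genes with few reads have larger standard errors. Intervals are 95%. Beside a call (adjusted p under 0.05), the study's limit on size was used, a 1.5-fold change in either direction, here with an adjusted p under 0.01. The genes named are GRB2, 10 members whatever their values, the 5 smallest adjusted p-values, and the largest rise and fall that passed in each class and list. Other members are given so that each is accounted for, except 1 whose values are not reported here or plotted by gene, although the counts and sums include it. The alternatives were DESeq2 1.42.0, other scalings and filters, limma 3.58.1 on log2 FPKM, a replicate block and each library left out. Samples with the same replicate number did not deviate together, and no pair of libraries agreed within sampling noise. Other tables and the plots were made in Python 3.11.15 (pandas 2.3.3, scipy 1.17.1, matplotlib 3.10.9). Alternative splicing and fRIP-seq were not analysed here.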

Additional observations from a re-analysis of the deposited data

How the results depend on the processing

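The level of GRB2 kept its direction and its call under every alternative, with log2 fold changes of −2.17 to −1.91. With DESeq2, 2 members were higher, against 13.5% of all genes, and without a filter on low counts 3 were, against 7.71%. With limma on log2(FPKM + 1) and log2(FPKM + 0.1) no member was lower and none higher (0 and 0). Of all genes, 1.89% and 2.03% were lower and 2.79% and 3.1% higher. In each, 16 members had an unadjusted p under 0.05 in limma, a limit at which all genes were not counted. With genes of a mean FPKM of at least 1, 4 of 55 were lower and 4 higher, both shares below those of all genes (9.07% and 15.6%). When 1 library was dropped, 2 to 3 were higher and 16 to 20 lower, against 11.2% to 13.4% and 12.2% to 14.5% of all genes. No member passed the 1.5-fold limit under any alternative. With total counts as the scale, an alternative chosen after seeing the data, 9 were higher, against 21.8% of all genes. The class medians of the log2 fold change then became 0.17 (LSM genes outside splicing), −0.078 (Sm ring), −0.00022 (U1), 0.090 (U11/U12), −0.035 (U2), −0.011 (U4/U6 and tri-snRNP), 0.020 (U5) and −0.024 (U6 LSM ring). With length and GC offsets, also chosen after seeing the data, they were −0.014 (U11/U12), −0.074 (U2AF), −0.038 (U4/U6 and tri-snRNP) and −0.099 (PRPF genes outside snRNPs). With a library left out they ran from −0.016 to 0.059 (U11/U12), from −0.19 to −0.11 (U2AF) and from −0.085 to −0.046 (U4/U6 and tri-snRNP), the lowest each time without si_NC library 1. LSM8 turned positive with limma on FPKM (0.037, 0.041 and 0.037), with total counts (0.048) and in 4 of 6 fits with a library left out (−0.028 to 0.014), and PRPF8 with total counts (0.0040). The cause of these changes was not tested. The replicate numbers do not pair the samples (correlations of the deviations of 0.232, −0.0948 and 0.0804 for equal numbers). With a replicate block 17 members were lower and 4 higher, against 15.3% and 15.1% of all genes. SNRPN rested on 690 reads in all and had a standard error of 0.13, against 0.025 for SNRPB.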
